A study of Mus musculus with 135 samples.

Results

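Trimethylation of lysine 4 of histone H3 (H3K4me3), a mark of nucleosomes at active and poised transcription start sites, was followed at the 7 genes of the Slit and Robo families: the ligands Slit1, Slit2 and Slit3 and the receptors Robo1, Robo2, Robo3 and Robo4. The members are the peaks of the 4 deposited peak lists that lie within 1 kb of a transcription start of one of these genes in the GENCODE M21 basic annotation, 22 promoter peaks of 187253 peaks in all. These are 2 peaks in hepatocytes, 6 in cardiomyocytes, 8 in embryonic stem cells and 6 in male germ cells. The genes were chosen by the measured difference between the parental strains and the levels in BXD75 and BXD87, so the values of those contrasts are given as a description. Where the fit across all peaks called a member in them, the count stands beside the share over all peaks, and nothing is read from it. All 22 peaks cover the start site itself. The nearest peak outside the limit belonged to Robo3 in germ cells, 1964 bp from a start site, and its log2 difference of B6 minus D2 was -0.14.

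The mark was profiled in the inbred strains C57BL/6J (B6) and DBA/2J (D2) and in BXD strains, recombinant inbred lines bred from a cross of both. Females aged 8 weeks gave the hepatocytes and the cardiomyocytes, in 3 libraries per cell type and strain for B6, D2 and the lines BXD75 and BXD87. Stem cells were derived from embryos of day 3.5 and gave 3 lines each of B6 and D2 and 5 lines each of BXD75 and BXD87, where the libraries of 1 line were summed. Crude germ cells came from males at 14 days after birth, with 3 libraries each of B6 and D2, 4 of the F1 cross of B6 and D2, and 69 libraries of 61 BXD strains. Chromatin was cut with micrococcal nuclease in every sample, and levels are counts per M reads in peaks (CPM), the reads of a peak scaled to the effective library size.

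Slits are secreted proteins that bind Robo receptors on the surface of growing axons and migrating cells and mostly repel them. Robo1 and Robo2 carry the signal to the cytoskeleton through adaptors such as the Srgap proteins, Robo3 is a divergent receptor known from commissural axons crossing the midline, and Robo4 is the receptor of the vascular endothelium. Outside the nervous system the pathway is known from the heart, blood vessels, kidney and gonads, and Slit2 and Robo1 have been studied in liver stellate cells.

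The depth in peaks ranged from 8.95 to 25.2 M reads (M for mega) in hepatocytes, 2.62 to 12.8 M in cardiomyocytes, 13.8 to 20.2 M in stem cell libraries and 1.87 to 31.4 M in germ cells. In cardiomyocytes the D2 libraries were the shallowest, at 2.62 to 4.1 M. Marker promoters were read against the labels. In hepatocytes 5 of 6 hepatocyte markers had a promoter peak (all but Serpina1a) with a summed level of 996 to 1660 CPM, and 0 of 6 cardiomyocyte markers had one. In cardiomyocytes 4 of 6 cardiomyocyte markers had a peak, Myh6 and Tnnt2 had none, and their summed level of 429 to 833 CPM lay beside 699 to 958 CPM for the endothelial list (6 of 7 with a peak) and 372 to 491 CPM for the fibroblast list (7 of 7). In stem cells Pou5f1, Nanog and Tdgf1 had no promoter peak, while the other 3 markers summed to 452 to 593 CPM. In germ cells all 6 germ cell markers had a peak, as did 5 of 7 Sertoli and Leydig markers.

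The promoters of these genes differ widely in CpG dinucleotides, the sites whose density goes with H3K4me3 at many promoters. In the RefSeq table of windows from 250 bases before to 50 bases after each start (GRCm38.p6, 32851 windows, 6 of the 7 members matched), the median window held 7 CpG and the quartiles were 3 and 20. The Slit3 window held 41 CpG and Slit2 held 30, more than 96.5% and 88.3% of windows. Robo1 held 15, Robo3 held 17 and the 3 Robo2 windows held 5, 9 and 17, while Robo4 held 2. The genes lie on GRCm38 at chr5:47983138-48307733 (Slit2), chr11:35121224-35708507 (Slit3), chr19:41600257-41743665 (Slit1), chr16:72663149-73046095 (Robo1), chr16:73891839-74411292 (Robo2), chr9:37416045-37433246 (Robo3) and chr9:37401897-37415115 (Robo4), so Robo1 and Robo2 are neighbours on chromosome 16 and Robo3 and Robo4 on chromosome 9. Upstream bases are shown for the promoter found in every cell type (Slit2), the promoter with the largest strain difference (Robo1) and the one with the fewest CpG (Robo4), followed by the middle of an intronic Robo1 peak of hepatocytes that is described further on. All are on the plus strand of GRCm38, in lower case, with every CpG in capitals, and the promoters end at the base before the first annotated start: Slit2 is chr5:47982905-47983137, Robo1 is chr16:72662899-72663148, Robo4 is chr9:37401722-37401896 and the intronic stretch is chr16:72924592-72924791.
Slit2: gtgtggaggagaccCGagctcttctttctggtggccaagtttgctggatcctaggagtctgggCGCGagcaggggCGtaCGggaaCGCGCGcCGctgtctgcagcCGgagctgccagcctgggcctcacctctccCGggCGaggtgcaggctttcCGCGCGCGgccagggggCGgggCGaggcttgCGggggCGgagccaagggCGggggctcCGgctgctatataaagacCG
Robo1: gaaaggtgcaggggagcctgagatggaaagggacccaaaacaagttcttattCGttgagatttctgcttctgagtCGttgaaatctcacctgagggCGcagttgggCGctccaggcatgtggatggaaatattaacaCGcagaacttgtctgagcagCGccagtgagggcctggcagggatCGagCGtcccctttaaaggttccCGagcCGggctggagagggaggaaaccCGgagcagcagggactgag
Robo4: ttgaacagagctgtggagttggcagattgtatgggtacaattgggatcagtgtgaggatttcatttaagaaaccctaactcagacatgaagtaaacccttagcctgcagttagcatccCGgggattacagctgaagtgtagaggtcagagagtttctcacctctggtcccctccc
Robo1 intron: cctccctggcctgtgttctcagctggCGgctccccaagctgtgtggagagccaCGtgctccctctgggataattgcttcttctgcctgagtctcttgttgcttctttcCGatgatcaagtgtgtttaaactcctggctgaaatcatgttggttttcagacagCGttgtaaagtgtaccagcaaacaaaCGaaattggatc
The stretches held 23 CpG in 233 bases (Slit2), 11 in 250 (Robo1), 1 in 175 (Robo4) and 5 in 200 (the Robo1 intron). Motifs were searched on both strands of the 300-base windows. TATAAA, the core of the TATA box, matched in Slit2 (1 match) and in 13.6% of all windows. GGGCGG, the core of the GC box, matched in Slit2 (3 matches), Slit3 (6) and Robo3 (3) and in 35.7% of all windows. CCAAT matched in Robo4 (1 match) and in 37.4% of all windows. No motif overlaps another in letters, and a match is a string of bases, not an occupied site.

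The ligand Slit2 and the receptor Robo1 were the members with a promoter peak in all 4 cell types. Slit3, Robo2 and Robo3 had one in every cell type but hepatocytes, Slit1 in stem cells and germ cells, and Robo4 in cardiomyocytes and stem cells. Per kilobase of peak, Slit2 was highest in germ cells at 14.8 ± 2.01 CPM per kb (SD over the 10 libraries of B6, D2 and F1), followed by Robo1 at 12.8 ± 1.73, Robo2 at 9.54 ± 1.09, Slit3 at 7.55 ± 1.22, Slit1 at 5.73 ± 1.22 and Robo3 at 4.02 ± 0.321. Each of these neighbours overlapped in the ranges of their libraries. The order depends on peak width: the Robo3 peak, 6798 bp wide, held 27.3 CPM in all, above Slit1 at 15.0 and near Slit3 at 26.9. The median promoter peak of the germ cells stood at 9.47 CPM per kb.

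In cardiomyocytes the order of promoter levels per kilobase was Slit2 (10 ± 2.56 CPM per kb, SD over 12 libraries), Robo1 (8.53 ± 3.29), Robo4 (8.45 ± 1.46), Robo2 (7.72 ± 1.43), Slit3 (6.06 ± 1.43) and Robo3 (5.0 ± 1.84), all below the median promoter of 10.8 and with overlapping ranges between neighbours. The Robo4 peak was the widest of the cardiomyocyte members at 6028 bp, and in stem cells the Robo4 peak measured 1415 bp. By CPM of the whole peak Robo4 was the highest cardiomyocyte member at 50.9, above Slit2 at 46.0 and above 53.2% of promoter peaks. In stem cells Robo1 (8.53 ± 1.07 CPM per kb, SD over 16 lines) and Slit2 (7.99 ± 0.789) exceeded the median promoter of 6.41. Slit3, Robo2, Robo3 and Slit1 followed between 5.04 and 4.24. Robo4 (3.03 ± 0.569) stood lowest together with the second Robo3 peak, at an inner start site of the gene, at 2.94 ± 0.513. By CPM of the whole peak Slit2 (51.2) lay above Robo1 (27.9) in stem cells. In hepatocytes Robo1 stood at 10.4 ± 5.29 and Slit2 at 7.67 ± 2.61 CPM per kb (SD over 12 libraries), where the wide spread of Robo1 holds the strain difference described next.

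**Figure D1:**
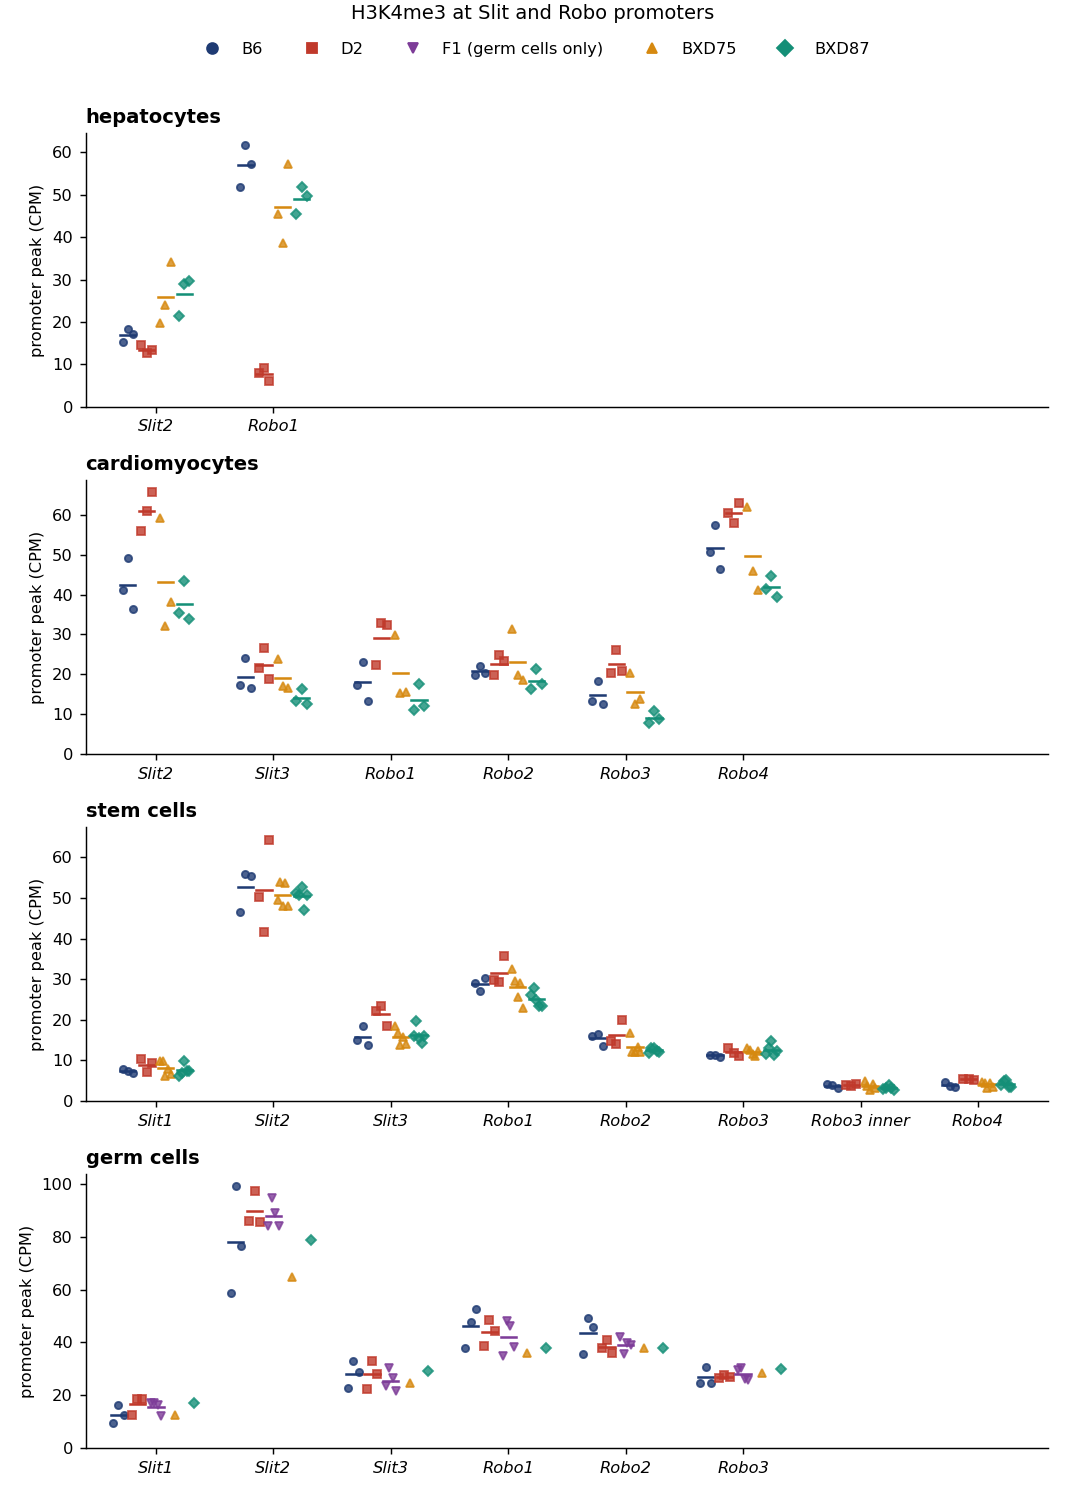
H3K4me3 at each promoter peak (CPM, axis from 0) in every library, or line for stem cells, by strain and cell type. Horizontal lines are group means, and "Robo3 inner" is the peak at the inner Robo3 start. Robo1 in hepatocytes is the promoter where D2 lies far below the other strains, and in cardiomyocytes the D2 mean lies above the B6 mean in all 6 promoters.

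In hepatocytes the receptor Robo1 carried the mark in B6 and both BXD lines and little of it in D2. The promoter peak (chr16:72662219-72666092, over exon 1) stood at 51.8, 61.7 and 57.2 CPM in B6 and at 7.98, 9.24 and 6.17 CPM in D2. The line BXD75 had 45.5, 38.6 and 57.3 CPM, and BXD87 had 45.5, 51.8 and 49.8 CPM. All D2 libraries lay below all others, and the lines overlapped each other and reached the level of the lowest B6 library. The fitted log2 difference of B6 minus D2 was 2.86 ± 0.16 (SE), a 7.25-fold difference. BXD75 differed by -0.28 from B6 and by 2.52 from D2 on the log2 scale, and BXD87 by -0.21 and 2.59.

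The difference did not stop at the promoter. Robo1 held 10 further peaks in its gene body in hepatocytes, all in introns, with centres from 9.71 to 312 kb downstream of the start. All 10 were called higher in B6 (edgeR quasi-likelihood test, Benjamini-Hochberg adjusted p under 0.05 over all peaks), with log2 differences of 0.88 to 3.14, where 15.8% of all hepatocyte peaks were called in either direction and 7.36% higher in B6. These peaks belong to the gene and contrast that chose it, so the count is a description. The peak at 262 kb, in the intron after exon 3, measured 14.0 CPM in B6, 2.96 in D2, 13.9 in BXD75 and 13.9 in BXD87 (means of 3 libraries); its middle is the intronic stretch printed above, with 5 CpG in 200 bases. The peak farthest from the start, at 312 kb, measured 4.13 CPM in B6 against 0.437 CPM in D2. It lies 961 bp from a further Robo1 start that is in the comprehensive GENCODE M21 annotation but not in the basic one. Summed over the promoter and the 10 gene body peaks, Robo1 had 180 to 186 CPM in B6, 46.8 to 64.5 in D2, 142 to 163 in BXD75 and 155 to 159 in BXD87.

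The share of the B6 level kept by D2 ran from 10.6% at 312 kb and 13.7% at the promoter to 54.4% at 145 kb. BXD75 lay nearer to B6 at 8 of the 10 gene body peaks and BXD87 at 9 of 10. The exception for both was the peak at 145 kb, with mean levels of 42.5 CPM in B6, 23.1 in D2, 27.8 in BXD75 and 29.4 in BXD87. The other exception was the first intronic peak, 9.71 kb from the start, where BXD75 (0.75 CPM) was at the level of D2 (0.782) and BXD87 (1.96) lay between D2 and B6 (3.74). There the lines differed by -1.41 ± 0.39 on the log2 scale (BXD75 minus BXD87), 1 of 15 member gene body peaks called between the lines where 4.89% of all peaks were; without BXD75 replicate 1 the difference was -1.11 and the peak was no longer called. Among other genes' peaks called between B6 and D2 within 5 Mb of Robo1, BXD75 was nearer to B6 at 3 of 5 and BXD87 at 5 of 5. Which parent's alleles the lines carry here was not analysed.

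**Figure D2:**
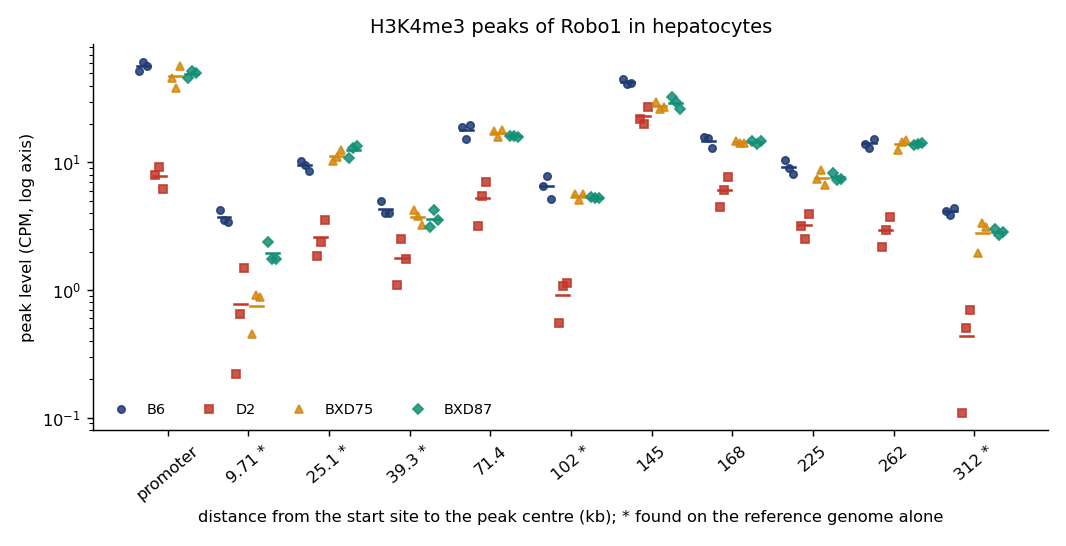
Level of the 11 Robo1 peaks in hepatocytes (CPM, log axis) against the distance of the peak centre from the start site, with a point for each library and a line at each strain mean. D2 lies below B6 in every peak, and both BXD lines lie nearer to B6 except at 9.71 kb for BXD75 and at 145 kb for both. Stars mark peaks found on the reference genome alone.

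The ligand Slit2 had the other hepatocyte promoter peak, at a lower level. B6 libraries had 15.2, 18.4 and 17.1 CPM, D2 14.5, 12.6 and 13.3, BXD75 19.8, 23.9 and 34.2, and BXD87 21.4, 28.9 and 29.7. D2 lay lowest without overlap (24.2% of promoter peaks had no overlap of B6 and D2), and both lines lay above both parents, by 0.57 and 0.63 over B6 on the log2 scale for BXD75 and BXD87; the log2 difference of B6 minus D2 was 0.33 ± 0.19. In all, 1 of the 2 member promoters was called between B6 and D2 where 9.22% of promoter peaks were, and 0 of 2 between BXD75 and BXD87 where 2.33% were (0 of 2 at an unadjusted p under 0.05 in edgeR, and 0 in DESeq2); both contrasts chose the genes, so these counts describe the members and test nothing. The fibroblast and stellate list, of which 2 of 7 markers had a peak (Pdgfra and Lrat), summed to 27.7 to 31.4 CPM in B6, 18.9 to 20.1 in D2, 32.8 to 47.7 in BXD75 and 28.3 to 41.4 in BXD87, lowest in D2 as Slit2 was, with Col1a1, Pdgfrb, Tcf21, Des and Dcn without a peak. Of the 2 markers with a peak 1 was called higher in B6, and their median log2 difference of B6 minus D2 was 0.18. The endothelial list, of which 4 of 7 markers had a peak, ran the other way. It summed to 60.3 to 70.6 CPM in B6 and 69.2 to 92.2 in D2, with 2 of 4 markers called higher in D2 (median log2 difference -0.29). The part of these lists in the Slit2 and Robo1 values was not tested. In bulk chromatin, fewer cells of a type and less mark per cell cannot be told apart.

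In cardiomyocytes all 6 promoter levels were lower in B6 than in D2, and all 6 were higher in BXD75 than in BXD87, while 0 of 6 was called in either comparison. The background of calls was 8.51% of promoter peaks between B6 and D2 and 0.433% between the lines. At an unadjusted p under 0.05 edgeR gave 3 of 6 between B6 and D2 and 1 of 6 between the lines, and DESeq2 called 0 in both, counts of contrasts that chose the genes and so a description. The median log2 difference of the 6 was -0.38 for B6 minus D2, where all promoter peaks had -0.04, and 0.40 for BXD75 minus BXD87, where all promoter peaks had 0.07.

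The ligand Slit2 stood at 36.5 to 49.3 CPM in B6, 56.1 to 65.8 in D2, 32.1 to 59.2 in BXD75 and 33.9 to 43.4 in BXD87. Slit3, the other ligand with a peak here, stood at 16.6 to 24.2, 18.9 to 26.5, 16.5 to 23.8 and 12.5 to 16.2 CPM in the same order. For Slit2 the D2 libraries lay above all B6 libraries, by 0.52 on the log2 scale (B6 minus D2 -0.52 ± 0.20), and for Slit3 the groups overlapped.

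Robo1 in cardiomyocytes stood at 13.3, 17.3 and 23.2 CPM in B6 and at 22.3, 32.5 and 32.9 CPM in D2, the opposite order to hepatocytes, with an overlap of 1 library and a log2 difference of -0.70 ± 0.30. Robo3, the midline receptor, stood at 12.5 to 18.4 CPM in B6, 20.4 to 26.2 in D2, 12.6 to 20.4 in BXD75 and 7.64 to 10.7 in BXD87, with no overlap within either pair. Its log2 differences were -0.62 ± 0.23 between the parents and 0.78 ± 0.23 between the lines, and without B6 replicate 2 the parental difference of -0.80 was called. Robo4, the endothelial receptor, had 46.5 to 57.5 CPM in B6 and 58.0 to 63.1 in D2 (log2 -0.23 ± 0.14), and Robo2 had 19.9 to 22.0 and 19.7 to 24.8 (-0.13 ± 0.21). Robo3, Robo4 and Slit2 had no overlap of B6 and D2, 3 of 6 promoters, where 34.8% of all promoter peaks had none, and Robo3 and Slit3 had none between the lines, where 16.5% had none.

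In 3 of the 4 groups the 6 promoters were highest in the same library: B6 replicate 2, BXD75 replicate 1 and BXD87 replicate 2 each had the highest level of their group in 6 of 6 promoters. In D2 replicate 2 was highest in 4 of 6 and replicate 3 in 2 of 6. Marker lists of other cell types were summed in the same groups: early neural markers (4 of 4 with a peak) summed to 112 to 196 CPM in B6, 203 to 238 in D2, 116 to 183 in BXD75 and 104 to 115 in BXD87, and smooth muscle markers (3 of 4, Rgs5 without a peak) to 51.6 to 54.4, 59.3 to 71.3, 40.9 to 45.8 and 44.9 to 48.3. Both lay higher in D2 than in B6 without overlap, with 1 of 4 early neural and 0 of 3 smooth muscle markers called. The fibroblast list summed to 386 to 491 CPM in B6, 433 to 483 in D2, 372 to 484 in BXD75 and 372 to 377 in BXD87, and the endothelial list to 801 to 922, 775 to 847, 699 to 958 and 765 to 801; both overlapped between B6 and D2, with 0 of 7 and 0 of 6 markers called. Cardiomyocyte markers ran the other way, with 575 to 683 CPM in B6, 429 to 451 in D2, 581 to 652 in BXD75 and 692 to 833 in BXD87. Their part in the member values was not tested, and the D2 group is also the shallowest. The gene bodies held 8 peaks in cardiomyocytes, of which 1 was called between B6 and D2, in Slit1, with a log2 difference of B6 minus D2 of 0.70 ± 0.19; 6.51% of all peaks were called.

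In embryonic stem cells all 7 genes had a promoter peak. Of 8 promoter peaks 1 was called between B6 and D2, that of Slit3, where 17.3% of promoter peaks were; the contrast chose the genes, so the count is a description. Slit3 stood at 13.7, 15.1 and 18.5 CPM in the B6 lines and at 18.5, 22.2 and 23.3 in the D2 lines, with 13.7 to 18.5 in BXD75 and 14.3 to 19.6 in BXD87, so that both lines lay at the level of B6, with the highest BXD87 line above it. Its log2 difference was -0.45 ± 0.14, and the call was lost without B6 line 139, B6 line 49, D2 line 173 or D2 line 203. Robo4 had 3.35 to 4.55 CPM in B6 and 5.27 to 5.31 in D2 (log2 -0.48 ± 0.20). Slit3 and Robo4 had no overlap, 2 of 8 promoters, where 23.2% of promoter peaks had none. For Slit3 the gap was smaller than the printed digits, with the highest B6 line and the lowest D2 line both at 18.5 CPM.

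The other stem cell promoters overlapped between B6 and D2, with log2 differences of -0.26 (Slit1) to 0.03 (Slit2). Robo1 had 27.0 to 30.2 CPM in B6, 29.3 to 35.6 in D2, 22.8 to 32.5 in BXD75 and 23.3 to 27.9 in BXD87, so D2 was not low here. Between BXD75 and BXD87 0 of 8 was called, where 14.5% of promoter peaks were (0 of 8 at an unadjusted p under 0.05 in edgeR, and 0 in DESeq2). Their log2 differences lay between -0.05 and 0.26.

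In the gene bodies of the stem cells 12 of 37 peaks were called between B6 and D2 (3 higher in B6, 9 higher in D2), a share near the 30.6% of all peaks called. In Robo1 the peak chr16:72784722-72787076, whose centre lies 122750 bp from the start, had 2.42, 1.83 and 3.31 CPM in the B6 lines and 11.0, 19.1 and 13 CPM in the D2 lines, with 4.03 to 7.1 in BXD75 and 4.28 to 7.63 in BXD87. Its log2 difference of B6 minus D2 was -2.47 ± 0.27, and the BXD lines lay between the parents. Peaks had been found on the reference genome and on a second genome, and this one on the second alone. In Slit1 the peak chr19:41605973-41609087, found on both genomes, had 16.1, 13.8 and 12.5 CPM in B6 and 7.08, 5.85 and 3.47 in D2 (1.34 ± 0.25), and the BXD lines, at 3.78 to 7.56, were at the level of D2.

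In Slit3 the stem cell peak chr11:35151000-35152853, found on both genomes, had 5.79 to 6.46 CPM in B6 and 10 to 16.9 in D2 (log2 -1.22 ± 0.17), and the BXD lines, at 5.89 to 8.56, were nearer to B6. In all, 5 of 37 peaks were over 2-fold apart without overlap, where 11.2% of all peaks were. The others were 1 more in Robo1 (-1.70 ± 0.34, and -1.16 without D2 line 203) and 1 in Robo2 (-4.04 ± 0.44), both found on the second genome alone. At the Robo2 peak B6 lines had 0.111 to 0.118 CPM and D2 lines 1.51 to 2.75. These B6 levels are near the floor, so the size of that log2 difference is uncertain. Between BXD75 and BXD87 4 of 37 gene body peaks were called, 3 in Robo1 and 1 in Slit1, where 21.8% of all peaks were called.

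**Figure D3:**
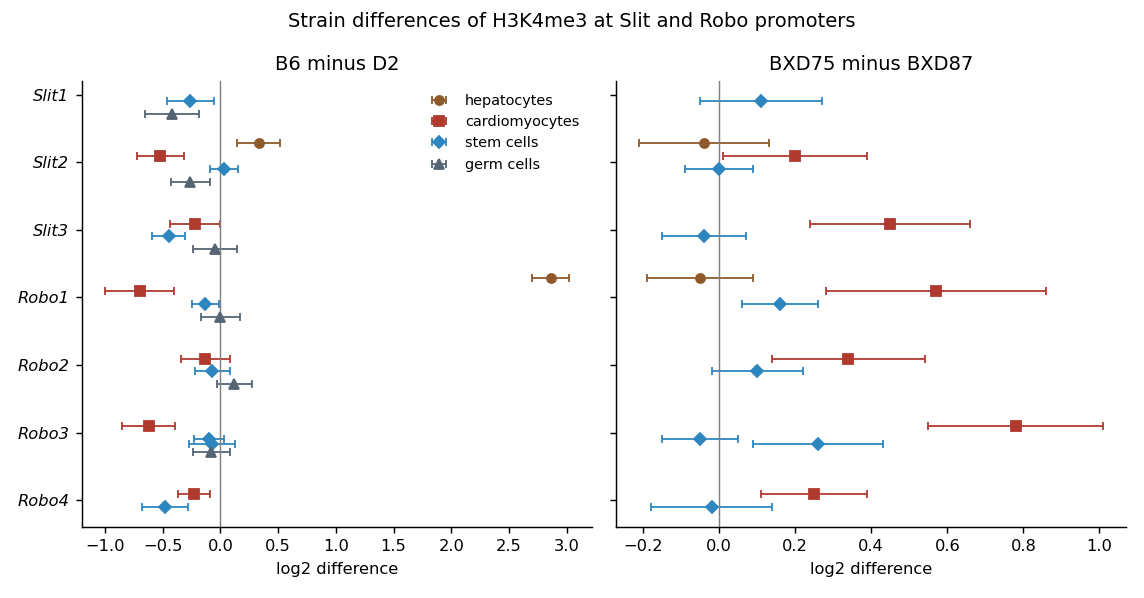
Log2 difference of each member promoter peak by cell type, with bars of 1 standard error to each side, for B6 minus D2 and for BXD75 minus BXD87. Both Robo3 peaks of the stem cells are drawn. Robo1 in hepatocytes, at 2.86 between the parents, lies apart from the other values of both panels, which run from -0.70 to 0.78.

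In male germ cells 6 of the 7 genes had a promoter peak, and 0 of 6 were called between the parental strains where 7.51% of promoter peaks were (0 of 6 at an unadjusted p under 0.05 in edgeR, and 0 in DESeq2). Slit2, the highest, had 58.7, 76.7 and 99.2 CPM in B6, 85.7, 86.1 and 97.5 in D2 and 84.1 to 94.6 in F1. Robo1 had 37.8 to 52.6 CPM in B6, 38.8 to 48.5 in D2 and 34.9 to 48.2 in F1. Slit1 had 9.27 to 16.3, 12.4 to 18.6 and 12.2 to 17.1 CPM in the same order, so the groups overlapped in each of these promoters.

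Log2 differences of B6 minus D2 in germ cells were -0.42 ± 0.23 for Slit1, -0.26 ± 0.17 for Slit2, -0.05 ± 0.19 for Slit3, 0.00 ± 0.17 for Robo1, 0.12 ± 0.15 for Robo2 and -0.08 ± 0.16 for Robo3. Without the B6 library B63, 2 promoters were called, Slit1 at -0.67 and Slit2 at -0.48. Over all germ cell peaks the calls rose from 11631 to 16222 in that setting, the most of any setting, so the 2 calls are a description. The B6 library B62 was the lowest of its group in 6 of 6 promoters and the D2 library 2 the highest in 6 of 6.

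The F1 was compared with the mean of its parents, a contrast that played no part in the choice of the genes. None of the 6 promoters differed past the threshold (0 of 6 by edgeR, 0 of 6 at an unadjusted p under 0.05, and 0 by DESeq2), with log2 differences of -0.13 to 0.13, where 0.787% of promoter peaks were called. Of 51 gene body peaks 0 were called by edgeR, where 1.59% of all peaks were, with 2 at an unadjusted p under 0.05 and 0 by DESeq2.

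Germ cell libraries were made with antibody of different lots, and these were compared next. Strains with lot 2557645 (28) were set against strains with lot 2746331 (32), without BXD99, which had both. Every other strain had 1 lot, and depth differed between the lots, so lot, strain and depth cannot be told apart in this comparison. Robo3 was lower in lot 2557645 by 0.27 on the log2 scale (-0.27 ± 0.04, edgeR adjusted p = 2.89e-07), Slit1 by 0.17 (-0.17 ± 0.06, adjusted p = 0.0153) and Robo2 by 0.10 (-0.10 ± 0.04, adjusted p = 0.00946). Thus 3 of 6 promoters were called, all lower, where 59.5% of all promoter peaks were called in either direction and 27.7% lower. The other 3 promoters each had -0.04. Marker promoters moved with the lots too: in lot 2557645, 5 of 6 germ cell markers were called higher (median log2 difference 0.22), 4 of 5 Sertoli and Leydig markers lower (-0.29) and 4 of 6 fibroblast and stellate markers lower (-0.13). Their part in the Robo3, Slit1 and Robo2 values was not tested. Founders and F1 share lot 2557645, so the comparison of F1 with its parents is within 1 lot.

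Across the 61 BXD strains Slit2 ran from 59.4 through a median of 76.9 to 95.3 CPM, Slit3 from 17.4 through 27.9 to 40.4, and Slit1 from 11.7 through 17.8 to 25.2. Robo1 ran from 32.1 through 40.4 to 53.3 CPM, Robo2 from 33.7 through 41.2 to 55.5 and Robo3 from 24.5 through 35.0 to 44.5. BXD2 was the lowest strain in 5 of the 6 promoters, all but Robo3.

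With the lots centred, the SD of log2 levels between strains was 0.16 for Robo1, 0.13 for Robo2, 0.15 for Robo3, 0.23 for Slit1, 0.12 for Slit2 and 0.21 for Slit3. Between repeat libraries of 1 strain, in the 7 strains that had them, it was 0.15, 0.12, 0.15, 0.17, 0.10 and 0.13 in the same order. The spread between strains was thus near that of repeats for the receptors and Slit2, and widest against it for Slit3. BXD75 had 64.9 CPM at Slit2 and 36.0 at Robo1 and BXD87 had 78.7 and 37.7, from 1 library each.

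Of 51 gene body peaks of the germ cells 14 were called between B6 and D2 (6 higher in B6, 8 higher in D2) where 17.3% of all peaks were called, and 11 were over 2-fold apart with no overlap, where 13.3% of all peaks were: 3 each in Robo1, Robo2 and Slit3 and 1 each in Slit1 and Slit2. In Robo1 the peak chr16:72897947-72899575, found on both genomes with its centre 236 kb from the start, had 8.87, 9.79 and 11.4 CPM in B6, 2.14, 2.47 and 2.6 in D2 and 4.15 to 7.25 in F1. All 4 F1 libraries lay between the parents' means, and the log2 difference was 1.95 ± 0.24. Of the 61 BXD strains 32 lay nearer to B6 and 29 nearer to D2, and BXD75 (10 CPM) and BXD87 (11.2) both lay with B6. The nearer founder, here and below, was read from levels without centring of the lots, and the founders all have lot 2557645. Between the lots 24 of 51 member gene body peaks were called (log2 -0.62 to 0.75), where 56.4% of all peaks were. The part of lot in the counts of strains was not tested.

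The Robo2 peak chr16:73974457-73976371, found on the reference genome alone, 436 kb from the start, had 8.66, 14.0 and 21.2 CPM in B6, 0.813, 1.07 and 1.76 in D2 and 3.66 to 8.89 in F1 (log2 3.61 ± 0.40), with 28 strains nearer to B6 and 33 nearer to D2. It lies 1.08 Mb from the Robo1 peak, and the same founder was the nearer one at both in 55 of 61 strains. For the Robo1 peak chr16:72814284-72815259, found on the second genome alone and higher in D2 (log2 -3.96 ± 0.47), the nearer founder was the same as at the Robo1 peak at 236 kb in 28 of 61 strains, at a distance of 0.0837 Mb. The 55 and the 28 strains were the highest and the lowest count of all pairs of such peaks on the same chromosome. Other pairs had 46 strains at 0.0302 Mb, 43 at 0.129 Mb, 36 at 0.213 Mb and 51 at 1.5 Mb. At the Robo1 peak of the second genome alone B6 had 0.211 to 0.426 CPM, near the floor. With the lots centred, the SD of log2 levels between strains was 0.60 at that peak and 0.86 at the peak at 236 kb. Between repeat libraries of the same strain, in the 7 strains that had them, it was 0.76 and 0.90, so repeats differed as much as strains at both Robo1 peaks. Some repeats were shallow, such as 1.87 M reads in a BXD84 library and 2.23 M in a BXD56 library. The part of depth in these SDs was not tested. At the Robo2 peak the SD was 1.37 between strains and 0.56 between repeats.

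The ligand genes held peaks of both directions in germ cells. The Slit3 peak chr11:35467710-35469366, found on the second genome alone, had 0.284 to 0.422 CPM in B6, 2.01 to 7.47 in D2 and 1.57 to 2.98 in F1 (log2 -3.85 ± 0.51), with 29 strains nearer to B6 and 32 nearer to D2. Its B6 levels are near the floor, so the size of this log2 difference is uncertain. The Slit1 peak chr19:41678486-41680507, also of the second genome alone, had 2.41 to 2.96 CPM in B6 and 7.03 to 9.51 in D2 (-1.68 ± 0.23). Another Slit3 peak, chr11:35177633-35179230, was found on both genomes. It had 3.24 to 4.54 CPM in B6, 10.1 to 11.1 in D2 and 6.37 to 7.45 in F1 (-1.5 ± 0.2). The Slit2 peak chr5:48003423-48004325, found on the reference genome alone, had 2.16 to 5.11 CPM in B6, 1.26 to 1.65 in D2 and 0.945 to 1.67 in F1 (1.18 ± 0.38), so that here F1 lay with D2.

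**Figure D4:**
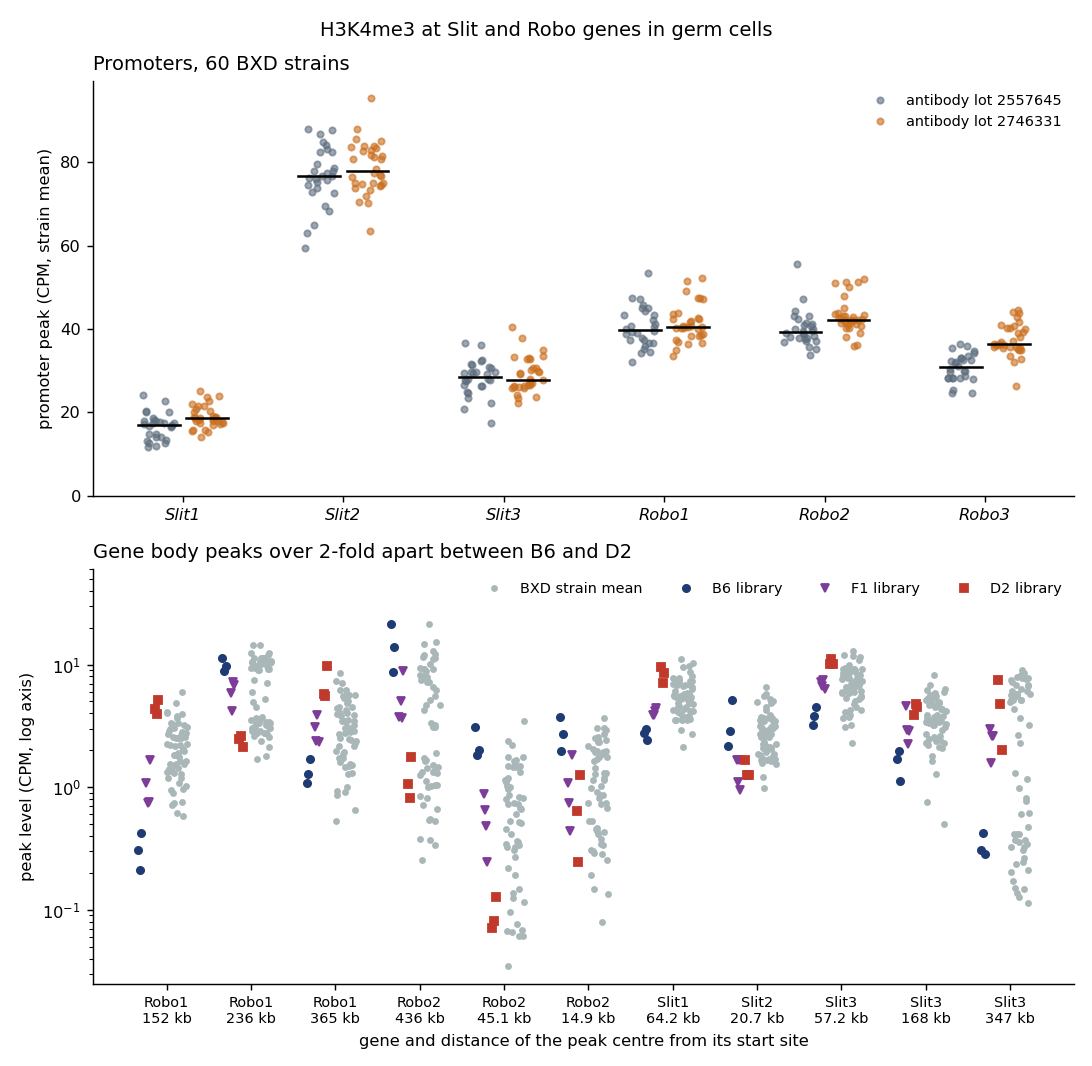
Top: promoter levels (CPM) of the 60 BXD strains with 1 antibody lot in germ cells, by gene and lot, with a line at the median. Bottom: gene body peaks over 2-fold apart between B6 and D2 (CPM, log axis), with a point for each parental or F1 library and each BXD strain mean. Robo3 levels are lower in lot 2557645, and F1 libraries lie between the parents in most gene body peaks.

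Peaks had been found on the reference genome, on a second genome or on both, and the direction of the gene body differences went with that. Over the 4 cell types, the member peaks found on both genomes were called in 16 of 69 cases, 8 higher in B6 and 8 higher in D2. Those found on the reference genome alone were called in 12 of 30 cases, all 12 higher in B6, and those found on the second genome alone in 9 of 12, all 9 higher in D2. Of the 30, 8 were cardiomyocyte peaks. Over all peaks the share called ran, by cell type, from 9.62% to 21.6% among those of both genomes. It ran from 4.3% (cardiomyocytes) to 50.7% among those of the reference alone, and from 29.1% to 76.2% among those of the second genome alone. The member counts are thus a description. All peaks of the series split in the same way in hepatocytes, stem cells and germ cells: of the called hepatocyte peaks 99.8% were higher in B6 among those of the reference alone, 0.463% among those of the second genome alone and 47.1% among those of both. In cardiomyocytes the share was 59.3% among those of the reference alone. The part of read alignment in these values was not tested. The Robo1 promoter in hepatocytes and 5 of its 10 gene body peaks there were found on both genomes.

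The promoters most like each member over the 61 germ cell strains, by Pearson's r of lot-centred log2 levels, are given as a description, since all promoters of a strain were read from the same libraries and at the same depth. They were Myc (0.88), Adgrl2 (0.86) and Rbms1 (0.85) for Robo1, Gata4 (0.82), Col14a1 (0.78) and Akap7 (0.78) for Robo2, and the shared promoter of Cyp24a1 and Pfdn4, Qprt and Avp (each 0.75) for Robo3. For the ligands they were Slco4a1 (0.89), Amn (0.88) and Bhlhe23 (0.88) for Slit1, Ephb6 (0.89), Actn1 (0.89) and Kcnn2 (0.88) for Slit2, and Twist2 (0.90), Gfod1 (0.90) and Stox2 (0.89) for Slit3. Among the members r was 0.76 for Slit2 with Slit3, 0.75 for Robo1 with Slit2 and 0.03 for Robo1 with Robo3.

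The wider pathway was read from a list of 52 other genes: co-receptors, adaptors, cytoskeletal effectors, regulators and other guidance genes. In hepatocytes 2 of 40 with a tested promoter were called, both higher in B6, where 9.22% of all promoter peaks were, and the median log2 difference of the list was 0.06 where all promoters had 0.02. Nrp1, a co-receptor of semaphorins, measured 211 CPM in B6 against 128 CPM in D2 (log2 0.72 ± 0.10, edgeR adjusted p = 2.6e-05). Cxcr4, the receptor of the chemokine Cxcl12, stood at 17.6 and 11.7 CPM (0.58 ± 0.17, adjusted p = 0.0249), a call kept in 7 of 12 alternatives.

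In cardiomyocytes 8 of 49 pathway genes were called between the parents, 6 higher and 2 lower in B6, where 8.51% of all promoter peaks were called, with a median of -0.03 where all promoters had -0.04; leaving out 1 library gave 3 to 12 calls. Lhx9, a LIM homeodomain factor, had 78.5 CPM in B6 and 19.1 in D2 (log2 2.03, edgeR adjusted p = 2.75e-06), and Unc5b, a netrin receptor, had 311 and 160 (0.96, adjusted p = 0.000308), both called in 12 of 12 alternatives. Nell2, a ligand of Robo3, had 4.65 and 17.6 CPM (-1.94, adjusted p = 0.0394), and Lhx2 had 67.5 and 126 (-0.91, adjusted p = 0.0325), each called in 6 of 12.

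In stem cells 6 of 50 pathway genes were called between the parents, 5 higher and 1 lower in B6 (4 to 11 without 1 line), where 17.3% of all promoter peaks were, with a median of 0.02 where all promoters had 0.01. The largest were Isl1 (log2 0.46, edgeR adjusted p = 0.00701), Sdc4 (0.44, adjusted p = 0.012), Cdc42 (0.39, adjusted p = 0.0181) and Lhx9, lower in B6 (-0.38, adjusted p = 0.0114). In germ cells 0 of 48 were called by edgeR between the parents (1 at an unadjusted p under 0.05, 0 by DESeq2), where 7.51% of all promoter peaks were, and 0 of 48 between F1 and its parents (0 unadjusted, 0 by DESeq2), where 0.787% were. Between BXD75 and BXD87 edgeR called 2 of 40 in hepatocytes, Srgap3 and Flrt3, where 2.33% of all promoter peaks were called, 0 of 49 in cardiomyocytes (14 unadjusted, 4 by DESeq2), where 0.433% were, and 14 of 50 in stem cells, where 14.5% were. The lots differed at 22 of 48, 14 higher and 8 lower in lot 2557645, where 59.5% of all promoter peaks did.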

How the data were processed

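H3K4me3 ChIP-seq was measured in 123 samples, with 12 input samples not used here. The authors deposited read counts per peak and library for each cell type, with peak positions on mm10, which matches GRCm38. Per the submitters' processing notes the tools include CASAVA 1.8, BWA 0.5.10 and MACS 1.4.2, with no role given; the counting method and the build of the second genome are not named there. Per the labels' protocols, germ cell libraries used a NEXTflex kit and the others a KAPA kit. Peaks were tied to GENCODE M21 basic starts within 1 kb. Counts were fitted per cell type with edgeR 4.0.16 in R 4.3.3 (low-count filter, TMM scaling, robust quasi-likelihood test, Benjamini-Hochberg adjustment over all peaks, threshold 0.05), with DESeq2 1.42.0 as an alternative, tested on simulated data. Germ cell levels were scaled over all libraries, and fold changes come from the fit of B6, D2 and F1. The labels do not say that replicates are separate animals, so p-values measure only the spread between these samples. Germ cell levels have 3 or 4 libraries per parent or F1, stem cell values 3 to 5 lines. Depth in peaks was 1.87 to 31.4 M reads. Every member was named. Levels by group were given for part of the promoter peaks and part of the peaks over 2-fold apart without overlap. The others were counted or given as log2 differences. Values were also given for the 3 most like promoters, and for at most 4 called pathway genes per cell type without overlap. The members and lists were chosen with earlier results of these data known. Same-numbered replicates did not pair consistently: correlations over 0.1 were seen in 5 of 18 hepatocyte and 8 of 18 cardiomyocyte pairs. The correlations ran from -0.265 to 0.605 in hepatocytes and from -0.734 to 0.65 in cardiomyocytes. The highest of each was between replicates 3 of BXD75 and BXD87.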

Additional observations from a re-analysis of the deposited data

Results flagged for a closer look

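In 22 groups of 4 to 10 libraries or lines, 2 held a sample far from the others, where chance gives about 1 in 20. The lowest F1 library at the Slit1 promoter in germ cells had 12.2 CPM. The highest BXD75 line at the Robo2 promoter in stem cells had 16.8 CPM. At the Slit2 promoter the log2 difference of B6 minus D2 was 0.33 in hepatocytes and -0.52 in cardiomyocytes, with every B6 library above every D2 library in the first and below in the second; this difference between cell types was not tested.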

How the results depend on the processing

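Of the promoter values under the alternatives, 595 moved by less than the spread between replicates (parents and lines) or kept their side of the threshold (F1 and lots), and 1 passed it: Slit2 between the lots, at -0.08 with a minimum of 50 reads. Between parents and lines, where calls are a description, calls could still change with the setting. With the comprehensive annotation, chosen after seeing the data, the number of member promoters called was 2 in hepatocytes, 3 in stem cells and 1 in germ cells between B6 and D2, and 5 between the lots. That annotation added 2 member peaks in hepatocytes, 4 in stem cells and 5 in germ cells. With the basic annotation 9.22%, 17.3% and 7.51% of all promoter peaks were called in these cell types, and 59.5% between the lots. Shares over all promoter peaks under the alternatives are not given here, so the counts are a description. With only the groups compared it was 1 in cardiomyocytes and 0 in stem cells, and with each stem cell library as a replicate 2. Leaving out 1 library gave 0 to 1 in cardiomyocytes (1 without B6 replicate 2), 0 to 1 in stem cells and 0 to 2 in germ cells (2 without B63). The cause was not tested. With a replicate block the counts were 1 in hepatocytes, with Robo1 at 2.86, and 0 in cardiomyocytes; no paired analysis was possible in germ cells because the count columns of B6 cannot be matched to the labels' replicate numbers, nor in stem cells because the lines share no numbers. Over all peaks, the calls between B6 and D2 moved with these settings too. They ran from 502 (without D2 replicate 2) to 3679 (without B6 replicate 2) around 1551 in cardiomyocytes (831 with the replicate block). In stem cells they ran from 14503 (only the groups compared) to 31493 (each library as a replicate) around 20566. In germ cells they ran from 5028 (a minimum of 50 reads) to 16222 (without B63) around 11631. Between the lines in cardiomyocytes they ran from 27 to 504 around 126, for F1 from 601 to 1315 around 1070 and for the lots from 17665 to 39140 around 37751.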
